A study of Mus musculus with 10 samples.

Results

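Of the 10 libraries of the series, 6 came from mouse ovarian tumours treated with a CDK4/6 inhibitor, and they fell into 3 libraries rich in skeletal muscle transcripts and 3 libraries poor in them. The sets were selected on Acta1, the skeletal muscle alpha-actin gene, at a limit of 1000 RPKM (reads per kilobase of gene, scaled to the depth of the library). The muscle-rich libraries were inhibitor replicates 1 and 2 and combination replicate 1, and the muscle-poor libraries were inhibitor replicate 3 and combination replicates 2 and 3. Each set therefore holds both treatments, and the split cuts across the labelled design. Below, the 3 values of a set are given with the inhibitor libraries before the combination libraries, each in the order of its replicate number.

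The combination group had received the inhibitor with a PD-1 antibody, the inhibitor group the inhibitor alone, the antibody group the antibody alone and the PBS group buffer. There were 3 libraries in each of the combination and inhibitor groups and 2 in each of the antibody and PBS groups. All mice were labelled wild type and all tissue ovarian cancer. The labels give no mouse strain, tumour line, dose or time, do not say whether the replicates were separate mice, and carry a different antibody number in the treatment text of combination replicates 2 and 3. Nothing in the labels tells what tissue was cut with a tumour. Totals ran from 25188785 to 29586539 reads in the muscle-rich libraries, against 28781315 to 36260856 reads in the muscle-poor ones and 25132208 to 34677434 reads in the 4 inhibitor-free libraries.

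CDK4 and CDK6 are the kinases that let a cell leave the first gap phase, and their inhibitors hold cells with an intact retinoblastoma protein in that phase. In tumour models such inhibitors are known to raise interferon and antigen presentation genes in tumour cells. PD-1 is the inhibitory receptor of activated T cells, and its antibody blocks the signal given by the ligand PD-L1. Ovarian tumour models that grow in the peritoneal cavity or under the skin lie against muscle, fat, gut and pancreas, so a dissected piece can carry host tissue. Skeletal muscle fibres hold very abundant messages for a few contractile proteins, and these occupy a fixed sequencing depth at the expense of all other genes.

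Acta1, at chr8:123891769-123894751 on GRCm38, had 2740.1, 2493 and 2656 RPKM in the muscle-rich libraries, against 0.0905, 54.4 and 243 RPKM in the muscle-poor ones. The value of inhibitor replicate 3 rested on 4 reads. The library just inside the limit stood at 2493 RPKM and the one just outside it at 243 RPKM, so no library lay near 1000 RPKM. The inhibitor-free libraries had 0.372 and 379 RPKM in the antibody libraries and 428 and 219.8 RPKM in the PBS ones. Antibody replicate 2 and PBS replicate 1 lay between the sets, and antibody replicate 1 and PBS replicate 2 lay within the muscle-poor range. Because these values chose the libraries, no test was made between the sets, and every difference between them below is a description of 6 libraries.

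The proximal promoter of Acta1 is shown because the rule rests on this gene, and its capitals mark the CArG box, the binding motif of serum response factor in muscle genes. The stretch lies at chr8:123894814-123894873 on the minus strand, in the 250 bases before the RefSeq start on GRCm38.p6.
Acta1: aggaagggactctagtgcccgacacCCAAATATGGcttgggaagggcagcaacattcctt
The box starts 73 bases before that start. On either strand it was found in 482 of 32851 RefSeq promoters of this length (1.47%), and in 4 of the 12 promoters matched to the sarcomere list (33.3%), which belong to Acta1, Ldb3 and Myh4. A match is a stretch of letters and no measure of binding.

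A gene is said to stand apart where all 3 muscle-rich libraries lay on one side of all 3 muscle-poor libraries and the means differed by at least 1 on the log2(RPKM + 0.5) scale. Of 19368 genes tested, 688 stood apart as higher in the muscle-rich libraries (3.55%) and 1875 as lower (9.68%). The median gene differed by −0.25 (muscle-rich minus muscle-poor), by −0.23 among the inhibitor libraries and by −0.25 among the combination libraries, and 69.0% of the genes lay below 0. With median-ratio scaling, which centres the libraries on their typical gene, the median gene moved to −0.02, and 1035 genes stood higher (5.34%) and 1153 lower (5.95%). The share of genes standing apart that were lower was 73.2% as deposited, 52.7% with median-ratio scaling, 50.8% with quantile normalization and 61.3% when the muscle genes were taken out of the library totals. Counts below are for the deposited values and are read against 3.55% and 9.68%.

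Across the tested genes every pair of libraries within a set was more alike than any pair between the sets. Pearson's r of the log2 values ran from 0.934 to 0.979 in the 6 pairs of libraries within a set (median 0.964), against 0.850 to 0.902 in the 9 pairs between the sets (median 0.882). Within each set the pair of the same treatment was the closest, with combination replicates 2 and 3 at 0.975 against 0.943 and 0.934 for the other pairs of muscle-poor libraries, and inhibitor replicates 1 and 2 at 0.979 against 0.962 and 0.965 for the other pairs of muscle-rich libraries. These are correlations over genes, which are not independent and include the muscle genes, and each library enters several pairs. Inhibitor replicates 1 and 2 differed by a chi-square of 23.9 per gene and combination replicates 2 and 3 by 52.2, whereas the pairs of the same treatment that crossed the sets differed by 446 to 532.

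The labelled contrast that the split cuts across was the one comparison that could be tested. Between the 3 combination and the 3 inhibitor libraries, limma with Benjamini-Hochberg adjustment called 0 of 19368 genes (0%), with 1166 genes at an unadjusted p under 0.05 and a lowest adjusted p of 0.754. With the split entered as a covariate it still called 0 genes, with 2773 at an unadjusted p under 0.05 and a lowest adjusted p of 0.120. The T cell receptor chain gene Cd3e differed by 1.54 (combination minus inhibitor, SE 0.61) on the log2 scale without the covariate and by 1.06 (SE 0.29) with it, at limma adjusted p-values of 0.754 and 0.258. For Cd274, which encodes PD-L1, the same difference was 1.81 (SE 1.22) without the covariate and 0.78 (SE 0.31) with it, at limma adjusted p-values of 0.781 and 0.353. The covariate was itself chosen from the data, so these fits describe the libraries. Each group is also unevenly split, with 2 of 3 inhibitor libraries rich in muscle against 1 of 3 combination libraries.

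Skeletal muscle genes stood higher for 48 of the 51 tested members of 4 lists. Together those lists took 12.5%, 11.1% and 12.6% of the reads in the muscle-rich libraries, against 0.125%, 0.374% and 1.12% in the muscle-poor ones. In the inhibitor-free libraries the share was 0.0792% and 0.905% with the antibody and 2.03% and 1.05% with PBS. The exact 95% binomial interval (Clopper-Pearson) ran from 12.52% to 12.55% for inhibitor replicate 1 and covers counting error only. These counts and shares include Acta1, which chose the sets and so had to stand higher. The label muscle-rich holds for the other contractile, calcium and energy genes that stood higher as well.

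**Figure D1:**
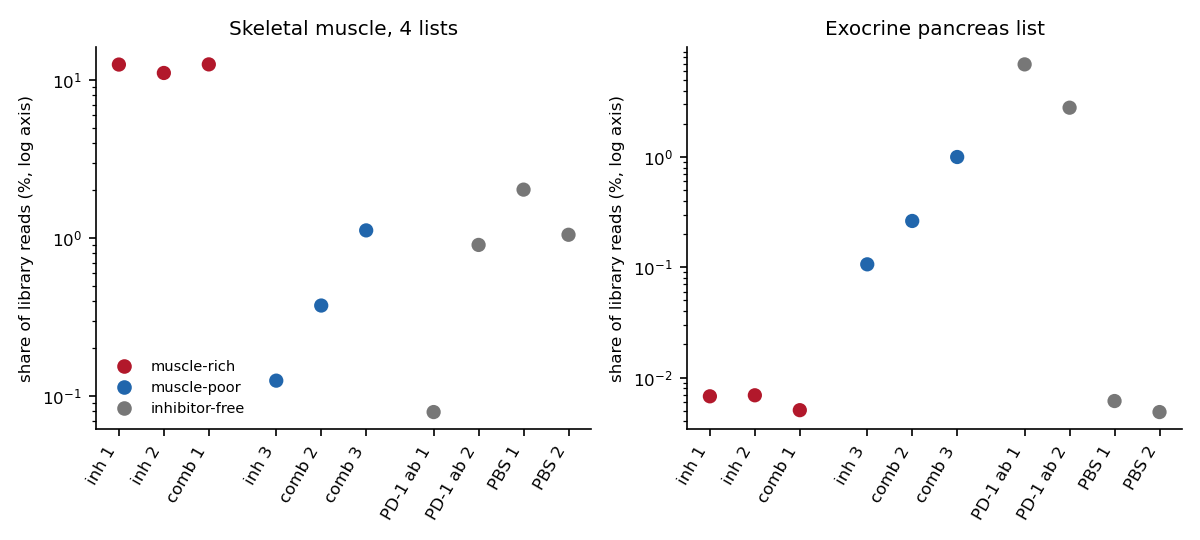
Share of each library's reads (%, log axis) taken by the genes of the 4 skeletal muscle lists (left) and of the exocrine pancreas list (right). One point is one library; the 3 muscle-rich libraries lie from 11.1% to 12.6% for muscle and from 0.00507% to 0.00691% for pancreas, and the 3 muscle-poor ones from 0.125% to 1.12% and from 0.106% to 0.999%.

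The contractile apparatus made the largest differences. Myh4, the myosin heavy chain of fast IIb fibres at chr11:67238029-67260446, had 7432, 6749 and 8066 RPKM in the muscle-rich libraries, against 0.554, 4.69 and 13.7 RPKM in the muscle-poor ones (difference 10.76). Tnnc2, the fast troponin C, had 20362, 16316 and 16092 RPKM in the muscle-rich libraries, against 0.999, 211 and 805 RPKM in the muscle-poor ones. Actn3, an actinin of fast fibres, had 619, 630.4 and 807 RPKM in the muscle-rich libraries, against 0.552, 2.66 and 6.04 RPKM in the muscle-poor ones, and Tnni2, the fast troponin I, differed by 7.09. All 18 sarcomere genes stood apart, Acta1 among them by the choice of the sets, with a median of 6.34. Slow-fibre genes did so for 8 of 9, led by Myh7, the slow myosin, at 383, 357 and 289.9 RPKM in the muscle-rich libraries, against 0.146, 11.9 and 48.7 RPKM in the muscle-poor ones.

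Genes of calcium release and excitation stood higher for 12 of 12 members (median 4.08). Pvalb, the calcium buffer parvalbumin of fast fibres, had 568, 408 and 456 RPKM in the muscle-rich libraries, against 0.0668, 2.06 and 5.96 RPKM in the muscle-poor ones. Atp2a1, the calcium pump of the fast sarcoplasmic reticulum, differed by 5.87 and Casq1, its calcium store, by 6.18. In energy supply 10 of 12 genes stood higher (median 3.70). Ckm, muscle creatine kinase, had 788, 685 and 898 RPKM in the muscle-rich libraries, against 0.0954, 15.2 and 65.8 RPKM in the muscle-poor ones, and the muscle glycolytic enzymes Pgam2 and Eno3 differed by 6.09 and 5.15. In every one of these genes the lowest muscle-rich library lay above the highest muscle-poor one.

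Myogenic factor genes stood higher for all 4 tested members, and genes of the neuromuscular junction for 3 of 7 (median 0.67). Myf6, a myogenic factor kept in mature fibres, had 49.3, 31.7 and 37.3 RPKM in the muscle-rich libraries, against 0, 0.381 and 1.15 RPKM in the muscle-poor ones. Myog, which drives fibre formation, had 1.98, 1.01 and 1.899 RPKM in the muscle-rich libraries, against 0, 0 and 0.0369 RPKM in the muscle-poor ones. Pax7, the marker of muscle stem cells, was below the filter in all but 1 library and was not tested. Chrna1, a subunit of the acetylcholine receptor at the nerve contact, had 1.28, 0.887 and 1.48 RPKM in the muscle-rich libraries, against 0.0158, 0.0136 and 0.0503 RPKM in the muscle-poor ones. Trim63 and Fbxo32, the ubiquitin ligases of muscle wasting, differed by 6.27 and 2.13, yet only 3 of 10 genes of the atrophy list stood higher and its median was −0.03, turning to 0.26 with median-ratio scaling, whereas the level of the list differed by 0.90. Tendon and fascia genes stood higher for 3 of 7 and lower for 1, with a median of 0.30 over both treatments, −0.42 among the combination and 1.30 among the inhibitor libraries. The matrix genes Thbs4 and Cilp differed by 3.69 and 1.74, the tendon gene Tnmd by 1.36, and the cartilage matrix gene Chad by −1.19.

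Outside the 4 lists, the genes with the largest higher differences were again muscle genes, with 1 exception in name. They were Ube2c, Trim63, Ankrd2, Mhrt, Lmod2, Trim54, Tpm2, Igfn1, Csrp3 and Myf6. Ube2c encodes a ubiquitin-conjugating enzyme of mitosis, and its value was 6276, 5029 and 4959 RPKM in the muscle-rich libraries, against 8.93, 72.3 and 254 RPKM in the muscle-poor ones. It shares 592 of its 2600 exon bases (22.8%) with Tnnc2 on the opposite strand, and Tnnc2 averaged 17590 RPKM in the muscle-rich libraries. Mhrt likewise shares 463 bases (38.1%) with Myh7 on the opposite strand, and Trim54 shares 382 of 1436 bases (26.6%) with Gm15469, also on the opposite strand, which averaged 86.8 RPKM in the muscle-rich libraries. The sources used here do not give whether reads were counted by strand. Ube2c rested on 441044, 329329 and 381449 reads in the muscle-rich libraries, against 668, 6321 and 23985 reads in the muscle-poor ones. Its values ranked these libraries in the same order as those of Tnnc2. How much of the value of each gene came from reads of its partner was not tested, so none of the 3 differences can be credited to the named gene.

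The muscle transcripts of combination replicates 2 and 3 were of another fibre-type mix than those of the muscle-rich libraries. As a percentage of the muscle-rich mean, Acta1 reached 2.07% in combination replicate 2 and 9.25% in combination replicate 3. Myh4 reached only 0.0633% and 0.185% in the same libraries, and Actn3 0.388% and 0.882%. Myh2 and Myh1, the myosins of fast oxidative and intermediate fibres, stood well above Acta1, at 11.3% and 40.0% for Myh2 and 9.09% and 34.5% for Myh1. Mb, the oxygen store myoglobin, reached 26.01% and 99.4%. In inhibitor replicate 3 muscle transcripts were too few to show such a mix, at 0.00344% for Acta1, 0.00748% for Myh4, 0.0149% for Myh1 and 0.0199% for Myh2. Myh1, Myh2 and Mb were singled out after their values were seen.

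The inhibitor-free libraries fell on both sides of this difference. In antibody replicate 2 Acta1 stood at 14.4% of the muscle-rich mean and Myh4 at 0.113%, and in PBS replicate 2 at 8.36% and 0.0734%. Myh1 and Mb lay above Acta1 in both, at 28.4% and 70.2% in antibody replicate 2 and 29.7% and 90.4% in PBS replicate 2. Myh2 and Myh7 also lay above it in PBS replicate 2, at 42.2% and 12.7%. In antibody replicate 2 they lay below it, at 6.74% and 0.133%, unlike in combination replicates 2 and 3. In PBS replicate 1 the muscle genes moved together, with Acta1 at 16.3%, Myh4 at 14.9%, Actn3 at 17.5%, Myh1 at 15.4%, Myh2 at 17.3% and Mb at 20.6%. PBS replicate 1 therefore held these genes in nearly the proportions of the muscle-rich libraries, whereas in the other libraries with muscle transcripts the fast IIb gene was far lower than Acta1. Igfn1, a sarcomere-associated gene, split the libraries in the same way, at 12.4, 24.99 and 55.3 RPKM in the muscle-rich libraries, against 0.0463, 0.0926 and 0.0766 RPKM in the muscle-poor ones, and at 0.0282 and 0.0520 RPKM in the antibody libraries and 12.4 and 0.0513 RPKM in the PBS ones.

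**Figure D2:**
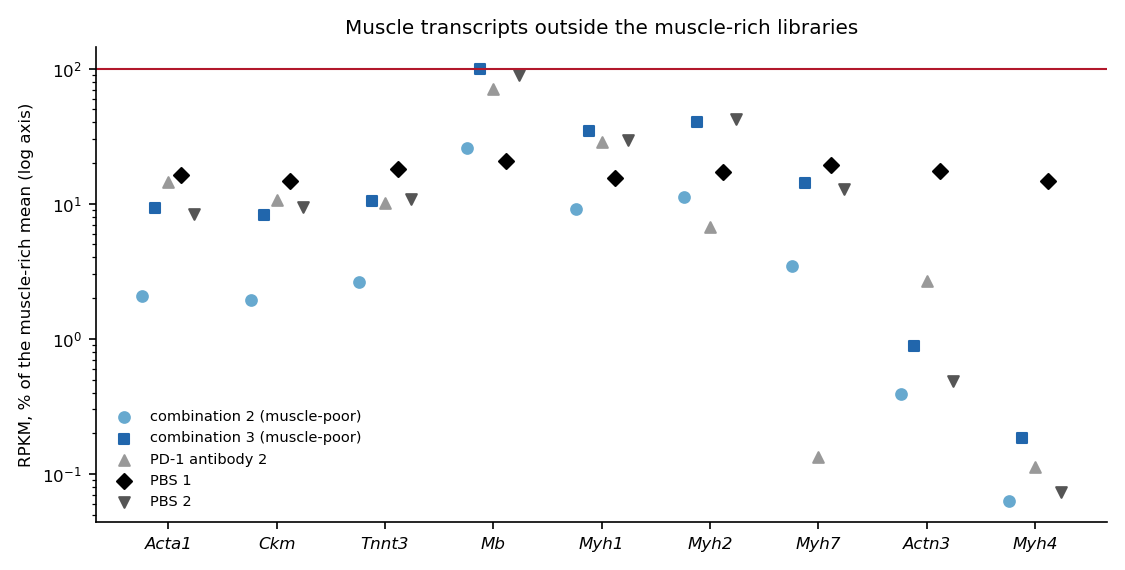
RPKM of 9 muscle genes in the 2 muscle-poor and 3 inhibitor-free libraries with measurable muscle, as a percentage of the mean of the 3 muscle-rich libraries (log axis; the line marks 100%). PBS replicate 1 stays between 14.9% and 20.6% for all 9 genes, and the other 4 libraries lie from 0.0633% to 0.185% for Myh4.

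Exocrine pancreas ran the opposite way. All 11 genes of its list stood lower in the muscle-rich libraries, with a median of −6.72, and the list took 0.00677%, 0.00691% and 0.00507% of the reads there, against 0.106%, 0.263% and 0.999% in the muscle-poor libraries. Prss2, a trypsinogen, had 0.272, 0.195 and 0.0415 RPKM in the muscle-rich libraries, against 102, 230.4 and 834 RPKM in the muscle-poor ones. Cpa1, a carboxypeptidase, had 0.127, 0.136 and 0 RPKM in the muscle-rich libraries, against 37.4, 111 and 424 RPKM in the muscle-poor ones, and Ctrb1, a chymotrypsinogen, had 0.169, 0.543 and 0.154 RPKM in the muscle-rich libraries, against 53.03, 142 and 473 RPKM in the muscle-poor ones. The 10 genes with the largest lower differences in the whole table were of this kind, namely Try4, Rnase1, Amy2a3, Prss2, Amy2a5, Try5, Amy2a2, Cpa1, Ctrb1 and Amy2a4, from −8.93 to −7.55. The trypsinogen and amylase genes have near-identical copies, so the value of each copy is uncertain. The antibody libraries held still more, at 6.91% and 2.80% of reads, and the PBS libraries 0.00613% and 0.00487%, as little as the muscle-rich ones. Each muscle-poor library thus carried pancreas transcripts, and the PBS libraries lacked both tissues' high levels.

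Blood and fat varied in other ways. Globin genes stood higher in the muscle-rich libraries, with Hbb-bs, an adult beta-globin, at 29.7, 169.8 and 112 RPKM in the muscle-rich libraries, against 9.998, 5.65 and 16.1 RPKM in the muscle-poor ones, and Hba-a1, an alpha-globin, at 22.1, 85.3 and 51.6 RPKM in the muscle-rich libraries, against 5.35, 4.396 and 8.69 RPKM in the muscle-poor ones. PBS replicate 1 exceeded them all, at 457 RPKM of Hbb-bs, and PBS replicate 2 had 10.4 RPKM. The paired globin genes are near-identical copies. Among adipocyte genes 2 of 10 stood higher, Car3 and Cfd; Car3 encodes a carbonic anhydrase found in both fat and muscle and differed by 5.03. Adipoq, which encodes the hormone adiponectin and is confined to fat, had 12.9, 3.94 and 4.31 RPKM in the muscle-rich libraries, against 9.59, 0.905 and 7.51 RPKM in the muscle-poor ones, and the sets overlapped. Keratin 14 (Krt14) of skin and other surface epithelia had 22.6, 27.8 and 12.5 RPKM in the muscle-rich libraries, against 3.56, 2.52 and 12.1 RPKM in the muscle-poor ones, and no liver gene stood apart in a list whose high values lay in antibody replicate 2 and PBS replicate 2.

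Most immune lists were lower in the muscle-rich libraries. Of 17 immune lists, the level (the mean of log2(RPKM + 0.5) over the tested members) was below in every muscle-rich library for 12, above for 1 and overlapping for 4. Among all single genes tested, 39.0% lay lower in the muscle-rich libraries with no overlap, whatever the size of the difference, and 11.7% higher. In these bulk samples, fewer cells of a type and less RNA per cell cannot be told apart. Muscle and pancreas transcripts, globins and several stress genes moved with the same split, and their part in the immune differences was not tested. With the muscle genes out of the totals, 15 of 19 T cell genes, 12 of 15 B cell genes and 21 of 25 type I interferon genes stood lower, against 16, 12 and 21 as deposited. The counts fell more for interferon gamma genes, to 8 of 16 against 12 as deposited, and for macrophage genes, to 5 of 16 against 8 as deposited.

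T cell genes stood lower for 16 of 19 members (median −1.81), against 9.68% of all genes. Cd4, the coreceptor of helper T cells, had 0.688, 1.06 and 1.12 RPKM in the muscle-rich libraries, against 6.52, 13.3 and 14.4 RPKM in the muscle-poor ones. Lck, the kinase that starts T cell receptor signalling, had 0.657, 1.29 and 2.42 RPKM in the muscle-rich libraries, against 3.89, 11.7 and 12.3 RPKM in the muscle-poor ones, and Il7r, the receptor of naive and memory T cells, had 0.300, 0.396 and 0.727 RPKM in the muscle-rich libraries, against 3.66, 3.63 and 4.06 RPKM in the muscle-poor ones. Cd3e, the receptor signalling chain, had 0.508, 0.934 and 1.24 RPKM in the muscle-rich libraries, against 1.73, 5.71 and 6.76 RPKM in the muscle-poor ones. In each of these the highest muscle-rich library was combination replicate 1 and the lowest muscle-poor one was inhibitor replicate 3, except that combination replicate 2 was lowest for Il7r. The median was −0.96 among the inhibitor libraries and −1.82 among the combination libraries.

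Cytotoxic genes stood lower for 8 of 14 members (median −1.46). Ccl5, a chemokine made by cytotoxic cells, had 0.347, 1.49 and 2.46 RPKM in the muscle-rich libraries, against 19.8, 20.3 and 27.1 RPKM in the muscle-poor ones, a mean 15.6-fold higher in the muscle-poor set. Gzmb, the killing protease granzyme B, had 0.365, 0.224 and 0.524 RPKM in the muscle-rich libraries, against 3.87, 4.24 and 6.81 RPKM in the muscle-poor ones, and Prf1, perforin, had 0.144, 0.155 and 0.757 RPKM in the muscle-rich libraries, against 1.69, 3.66 and 6.46 RPKM in the muscle-poor ones. Cd8a, the coreceptor of cytotoxic T cells, had 0.153, 0.589 and 1.02 RPKM in the muscle-rich libraries, against 0.525, 4.26 and 6.79 RPKM in the muscle-poor ones, so that inhibitor replicate 3 lay within the muscle-rich range. Without inhibitor replicate 3 the count was 14 of 14, against 2107 of all 19368 genes. That leaves only combination libraries as muscle-poor, so the split is then mixed with the antibody. The within-treatment medians were −0.44 for the inhibitor and −1.78 for the combination.

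B cell genes stood lower for 12 of 15 members (median −1.84). Cd22, an inhibitory receptor of B cells, had 0.0514, 0.213 and 0.416 RPKM in the muscle-rich libraries, against 1.94, 5.98 and 4.305 RPKM in the muscle-poor ones, and Pou2af1, the coactivator of germinal centre B cells, had 0.377, 0.639 and 0.928 RPKM in the muscle-rich libraries, against 4.65, 7.98 and 5.26 RPKM in the muscle-poor ones. Ms4a1, which encodes CD20, rested on 0, 0 and 2 reads in the muscle-rich libraries, against 103, 388 and 218 reads in the muscle-poor ones. The sets did not overlap in any of the 3 genes, and the medians within treatments were −1.37 and −2.00 for inhibitor and combination.

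Antibody genes followed, with 10 of 15 standing lower (median −1.34). Igkc, the kappa light chain constant region, had 499, 878 and 907 RPKM in the muscle-rich libraries, against 3188, 4631 and 4778 RPKM in the muscle-poor ones. Igha, the heavy chain of mucosal antibody, had 15.8, 12.3 and 53.2 RPKM in the muscle-rich libraries, against 94.6, 261 and 189 RPKM in the muscle-poor ones, and Jchain, the joining chain of secreted multimers, had 16.6, 29.04 and 51.1 RPKM in the muscle-rich libraries, against 61.1, 149 and 138 RPKM in the muscle-poor ones. Exceptions included Ighg2c, chosen after its values were seen, at 243, 1012 and 1027 RPKM in the muscle-rich libraries and 935, 1088 and 885 RPKM in the muscle-poor ones. Immunoglobulin genes have near-identical copies, so the values of single genes are uncertain.

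Among myeloid lists, macrophage genes stood lower for 8 of 16 members (median −1.16), and for 3 of 16 with median-ratio scaling. Adgre1, which encodes the macrophage marker F4/80, had 1.28, 1.71 and 3.9996 RPKM in the muscle-rich libraries, against 7.08, 11.9 and 12.8 RPKM in the muscle-poor ones, and Csf1r, the receptor for the macrophage growth factor, had 6.19, 6.17 and 9.44 RPKM in the muscle-rich libraries, against 18.5, 28.7 and 29.6 RPKM in the muscle-poor ones. Cd68, a lysosomal protein, had 18.1, 16.7 and 26.1 RPKM in the muscle-rich libraries, against 41.4, 44.3 and 50.2 RPKM in the muscle-poor ones. C1qa, a complement subunit of tissue macrophages, had 77.3, 84.8 and 109 RPKM in the muscle-rich libraries, against 98.7, 232 and 234 RPKM in the muscle-poor ones, and there the sets overlapped. Dendritic cell genes stood lower for 2 of 11, led by Ccr7, the receptor for migration to lymph nodes, at −1.67, and natural killer genes for 1 of 2.

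Neutrophil genes stood lower for 2 of 9, and their level ran with single libraries, as S100a8, a granulocyte calcium-binding protein, had 0.0533, 0.229 and 1.12 RPKM in the muscle-rich libraries, against 6.01, 0 and 1.75 RPKM in the muscle-poor ones. Mast cell genes alone among the immune lists had a higher level in every muscle-rich library, while 2 of 7 members stood higher and 3 had a difference below 0, the lowest that of Hdc, which makes histamine, at −0.96. The level was 1.74, 1.63 and 2.05 in the muscle-rich libraries, against 1.33, 1.42 and 1.47 in the muscle-poor ones, and Mcpt4 and Tpsb2, the connective tissue mast cell proteases, had 5.83, 4.17 and 7.99 in muscle-rich against 1.26, 1.26 and 2.51 RPKM in muscle-poor libraries and 4.52, 3.38 and 4.85 in muscle-rich against 0.964, 1.71 and 1.63 RPKM in muscle-poor libraries. Both proteases thus stood higher in every muscle-rich library.

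Type I interferon genes stood lower for 21 of 25 members (median −1.54). Ifit1 and Ifit3, effectors that bind foreign RNA or its sensors, had 2.98, 3.47 and 5.497 in muscle-rich against 24.3, 38.01 and 26.9 RPKM in muscle-poor libraries and 64.7, 74.7 and 118 in muscle-rich against 227, 571 and 423 RPKM in muscle-poor libraries. Rsad2, the antiviral enzyme viperin, had 0.650, 1.18 and 2.37 RPKM in the muscle-rich libraries, against 9.85, 12.6 and 9.14 RPKM in the muscle-poor ones, and Mx1, an antiviral GTPase, had 1.29, 2.48 and 6.42 RPKM in the muscle-rich libraries, against 14.4, 26.8 and 18.2 RPKM in the muscle-poor ones. Isg15, a ubiquitin-like modifier, had 13.9, 17.7 and 27.6 RPKM in the muscle-rich libraries, against 46.9, 76.6 and 50.1 RPKM in the muscle-poor ones. Irf7, the transcription factor that amplifies the response, had 9.52, 9.85 and 24.7 RPKM in the muscle-rich libraries, against 44.9, 60.4 and 47.8 RPKM in the muscle-poor ones. The list's level was 2.73, 2.87 and 3.42 in the muscle-rich libraries, against 4.25, 4.92 and 4.66 in the muscle-poor ones, and it lay from 2.72 to 3.38 in all 4 inhibitor-free libraries. The muscle-poor libraries were thus the high ones of the series in this list, and the inhibitor-free libraries lay within the muscle-rich range, except PBS replicate 1 just below it. Of the 21 genes standing lower, 20 and 19 lay nearer to the muscle-rich mean than to the muscle-poor mean in the antibody libraries, and 21 and 18 in the PBS libraries.

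Interferon gamma genes stood lower for 12 of 16 members (median −1.89), and for 8 of 16 with median-ratio scaling. Gbp2 and Gbp5, guanylate-binding proteins that attack vacuoles of pathogens, had 48.9, 72.4 and 99.5 in muscle-rich against 139, 383 and 484 RPKM in muscle-poor libraries and 6.49, 10.3 and 13.4 in muscle-rich against 32.6, 44.99 and 54.5 RPKM in muscle-poor libraries. The chemokine genes Cxcl9 and Cxcl10, whose products draw activated T cells, differed by −1.79 and −1.88, and only Cxcl10 stood apart, because inhibitor replicate 3 had 19.6 RPKM of Cxcl9 and combination replicate 1 had 19.8 RPKM.

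Promoters of 5 interferon genes that stood lower are shown because their members moved together; the capitals mark the core of the interferon-stimulated response element, spelled GAAA, any 2 bases and GAAA, or TTTC, any 2 bases and TTTC where it lies on the other strand. The sequences are from RefSeq on GRCm38.p6, written along the strand of the gene. Isg15 is at chr4:156200850-156200921 (minus), Ifit3 at chr19:34583348-34583441 (plus), Rsad2 at chr12:26456538-26456597 (minus), Gbp2 at chr3:142620579-142620638 (plus) and Cxcl10 at chr5:92349068-92349127 (minus).
Isg15: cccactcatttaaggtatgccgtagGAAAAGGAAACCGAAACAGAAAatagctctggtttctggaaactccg
Ifit3: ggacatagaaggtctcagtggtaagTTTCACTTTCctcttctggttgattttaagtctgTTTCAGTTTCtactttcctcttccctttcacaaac
Rsad2: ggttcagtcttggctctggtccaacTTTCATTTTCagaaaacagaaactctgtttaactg
Gbp2: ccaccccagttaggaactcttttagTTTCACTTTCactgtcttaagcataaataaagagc
Cxcl10: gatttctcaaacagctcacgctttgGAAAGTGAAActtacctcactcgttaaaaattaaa
Isg15 holds 3 overlapping matches. The core was found in 978 of 32851 promoters (2.98%), in 8 of 18 promoters of the type I list (44.4%) and in 11 of 16 of the interferon gamma list (68.8%), where 17 of 25 and 14 of 17 genes were matched. It was in 0 of 13 checkpoint and 0 of 15 T cell promoters, which says only that these letters are not in those windows. Both interferon lists were compiled from known target genes, so the shares describe the lists.

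Antigen presentation differed by class. Class I genes stood lower for 10 of 18 (median −1.05), 5 of 18 with median-ratio scaling. H2-K1, a classical class I heavy chain, had 500.4, 644 and 989 RPKM in the muscle-rich libraries, against 1978, 2141 and 2292 RPKM in the muscle-poor ones, and Nlrc5, the class I transactivator, had 2.88, 5.04 and 6.17 RPKM in the muscle-rich libraries, against 9.25, 20.03 and 20.99 RPKM in the muscle-poor ones; the class I genes H2-Q6 and H2-Q7 are close copies of each other and differed by −1.98 and −1.84. Class II genes stood lower for 3 of 11, namely Ctss, H2-Ob and H2-Oa. H2-Ab1, a class II beta chain, had 650.01, 918 and 1253 RPKM in the muscle-rich libraries, against 675, 2069 and 2139.6 RPKM in the muscle-poor ones. Inhibitor replicate 3 lay inside the muscle-rich range for H2-Ab1, and without it 9 of 11 class II genes stood lower, against 2107 of all 19368 genes. Leaving it out sets combination libraries alone as muscle-poor, so the count mixes the split with the antibody.

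Immune checkpoint genes stood lower for all 14 members (median −1.67). Cd274, encoding PD-L1 at chr19:29367455-29388095, had 2.31, 4.46 and 8.28 RPKM in the muscle-rich libraries, against 42.8, 48.4 and 59.5 RPKM in the muscle-poor ones. Its mean was 10.01-fold higher in the muscle-poor set, and it differed by −3.53 among inhibitor and −2.63 among combination libraries. Its other values were 26.9 and 12.1 RPKM in the antibody libraries and 4.83 and 14.9 RPKM in the PBS ones, all between the sets except PBS replicate 1, which lay within the muscle-rich range. Pdcd1, encoding PD-1, had 1.02, 1.502 and 1.65 RPKM in the muscle-rich libraries, against 6.89, 9.83 and 13.6 RPKM in the muscle-poor ones. Tigit, an inhibitory receptor of T and natural killer cells, had 1.34, 2.39 and 2.84 RPKM in the muscle-rich libraries, against 7.87, 15.6 and 17.6 RPKM in the muscle-poor ones, and Tnfrsf9, the activation receptor 4-1BB, had 0.245, 0.263 and 0.447 RPKM in the muscle-rich libraries, against 4.06, 1.68 and 2.21 RPKM in the muscle-poor ones. With median-ratio scaling 12 members stood lower.

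Chemokines of lymphoid structures stood lower for 6 of 9 (median −1.94). Ccl3 and Ccl4, which draw monocytes and T cells, had 1.55, 1.97 and 4.59 in muscle-rich against 16.7, 14.7 and 15.4 RPKM in muscle-poor libraries and 0.392, 0.722 and 0.666 in muscle-rich against 4.001, 3.24 and 4.51 RPKM in muscle-poor libraries. Cxcl13, which draws B cells into follicles, had 0.901, 2.49 and 3.41 RPKM in the muscle-rich libraries, against 44.8, 3.47 and 6.81 RPKM in the muscle-poor ones; it differed by −4.47 among the inhibitor and by −0.46 among the combination libraries. Ccl8, a monocyte chemokine, had 16.9, 10.7 and 23.2 RPKM in the muscle-rich libraries, against 10.9, 45.3 and 39.4 RPKM in the muscle-poor ones, and the sets overlapped.

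Among inflammatory secreted factors 1 library decided the values. Cxcl1, a neutrophil chemokine, had 8.68, 6.31 and 2.96 RPKM in the muscle-rich libraries, against 519, 2.28 and 1.88 RPKM in the muscle-poor ones, so that inhibitor replicate 3 alone was high. Il1b, encoding interleukin 1 beta, had 0.504, 1.69 and 1.28 RPKM in the muscle-rich libraries, against 56.9, 2.496 and 2.097 RPKM in the muscle-poor ones, and Lif, a cytokine of the interleukin 6 family, had 0.536, 0.721 and 1.35 RPKM in the muscle-rich libraries, against 13.97, 1.54 and 1.72 RPKM in the muscle-poor ones. The list's median was −1.40 in all 6 libraries, −4.05 among the inhibitor and 0.03 among the combination libraries. Without inhibitor replicate 3, which left only combination libraries as muscle-poor, it was −0.41, with 2 of 14 genes lower and 3 higher. Of all 19368 genes 2107 then stood lower and 715 higher. Complement genes stood lower for 5 of 10, and C3, the central component, had 196, 209 and 368 RPKM in the muscle-rich libraries, against 2006, 592 and 780.1 RPKM in the muscle-poor ones, highest in the same library.

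**Figure D3:**
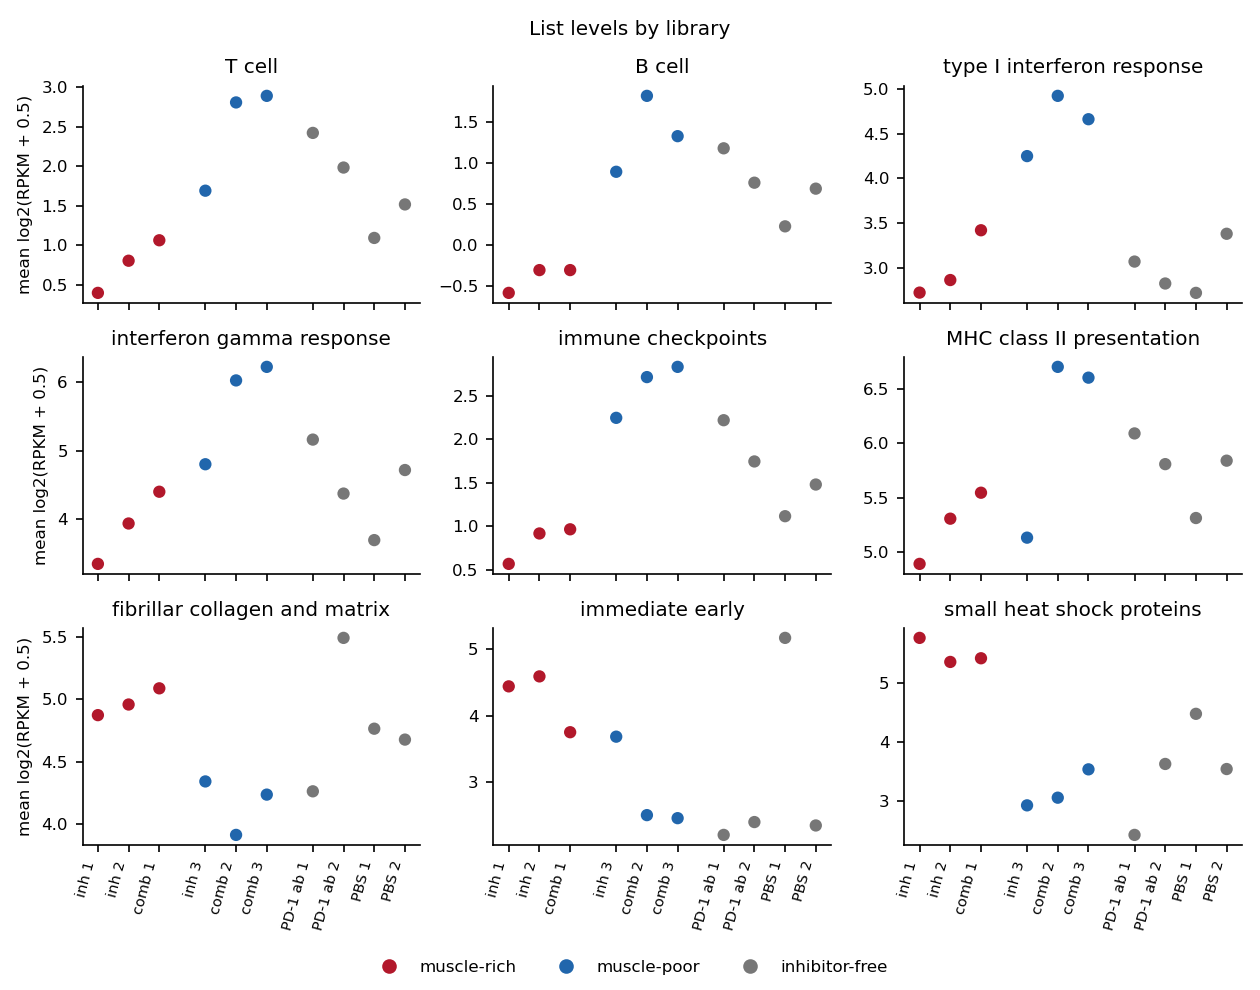
Level of 9 gene lists (mean of log2(RPKM + 0.5) over tested members) in the 10 libraries, one point each, muscle-rich left of muscle-poor and inhibitor-free libraries on the right (inh, inhibitor; comb, combination; PD-1 ab, antibody). T cell, B cell, interferon and checkpoint levels are lower in all 3 muscle-rich libraries than in all 3 muscle-poor ones, the class II levels overlap, and collagen, immediate early and small heat shock levels are higher.

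Stromal genes were mixed, and 3 of their 8 lists had a higher level in every muscle-rich library, none a lower one. Of matrix genes 3 of 12 stood higher (median 0.79), 7 of 12 with median-ratio scaling. Col1a1, the main fibrillar collagen, had 116, 101 and 103 RPKM in the muscle-rich libraries, against 35.4, 24.1 and 33.01 RPKM in the muscle-poor ones. Postn, the matrix protein periostin, had 37.1, 39.6 and 32.5 RPKM in the muscle-rich libraries, against 10.9, 6.05 and 7.25 RPKM in the muscle-poor ones, and Col6a3, a collagen of the sheath around fibres and other cells, had 21.3, 28.99 and 23.3 RPKM in the muscle-rich libraries, against 7.11, 14.5 and 10.2 RPKM in the muscle-poor ones. Antibody replicate 2, with 86.2 RPKM of Col1a1, and PBS replicate 1, with 75.1 RPKM, lay nearer to the muscle-rich libraries.

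Fibroblast genes split in direction. Clec3b and Dpt, matrix-associated products of fibroblasts in connective tissue, had 34.5, 21.1 and 38.5 in muscle-rich against 6.97, 4.02 and 9.01 RPKM in muscle-poor libraries and 54.7, 40.2 and 60.5 in muscle-rich against 27.7, 13.4 and 25.4 RPKM in muscle-poor libraries. Pdgfra, the growth factor receptor of fibroblasts, ran the other way at 4.27, 4.71 and 6.61 RPKM in the muscle-rich libraries, against 15.4, 9.54 and 9.37 RPKM in the muscle-poor ones, and Dcn, the proteoglycan decorin, had 34.8, 34.2 and 40.7 RPKM in the muscle-rich libraries, against 84.9, 47.001 and 60.5 RPKM in the muscle-poor ones, a difference of −0.77 that missed the size of 1. With median-ratio scaling 4 fibroblast genes stood higher and none lower. Basement membrane genes stood apart for 0 of 10, with Lamc1 and Lamb2, both laminin chains, at −0.89 and 0.71, and matrix remodelling genes for 1 of 13, Tnc, at 1.06. Mmp2, a gelatinase made by fibroblasts, had 13.2, 15.1 and 13.4 RPKM in the muscle-rich libraries, against 26.96, 17.1 and 21.2 RPKM in the muscle-poor ones, with no overlap and a difference of −0.61.

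Smooth muscle genes stood higher for 5 of 9 (median 1.48). Without combination replicate 1, which left only inhibitor libraries as muscle-rich, 2 of 9 did, against 759 of all 19368 genes. Myh11, the smooth muscle myosin, had 43.3, 41.8 and 159 RPKM in the muscle-rich libraries, against 17.6, 18.4 and 38.8 RPKM in the muscle-poor ones, and Acta2, the smooth muscle actin, had 18.7, 17.3 and 71.9 RPKM in the muscle-rich libraries, against 7.88, 9.403 and 17.2 RPKM in the muscle-poor ones. Both were highest in combination replicate 1, and for both the lowest muscle-rich library lay just above the highest muscle-poor one. Blood endothelial genes differed by less than the size of 1 for all but 1 member, although their level was 2.15, 2.18 and 2.38 in the muscle-rich libraries, against 1.77, 1.70 and 1.90 in the muscle-poor ones. Pecam1, an endothelial adhesion molecule, had 8.36, 9.51 and 11.6 RPKM in the muscle-rich libraries, against 8.603, 7.95 and 8.75 RPKM in the muscle-poor ones, and Rgs5, a pericyte marker, had 23.8, 30.9 and 28.8 RPKM in the muscle-rich libraries, against 11.4, 17.8 and 20.3 RPKM in the muscle-poor ones. Of 15 endothelial genes 10 did not overlap between the sets and were higher in the muscle-rich one, against 11.7% of all tested genes, but only Cldn5, a tight junction gene, reached the size of 1, at 1.15; with median-ratio scaling 6 did.

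Stress genes did not move as one. Of 8 stress lists, the level was above in every muscle-rich library for 2, below for 1 and overlapping for 5. Small heat shock proteins, chaperones that bind contractile filaments in muscle, stood higher for 6 of 7 (median 2.60). Hspb6 and Hspb7 had 82.6, 58.99 and 48.6 in muscle-rich against 1.09, 3.49 and 6.41 RPKM in muscle-poor libraries and 65.7, 45.8 and 71.6 in muscle-rich against 1.43, 2.23 and 8.18 RPKM in muscle-poor libraries, and Cryab, alpha-B crystallin, had 276, 194 and 246 RPKM in the muscle-rich libraries, against 19.1, 27.3 and 38.4 RPKM in the muscle-poor ones. As a percentage of the muscle-rich mean, Hspb6 and Hspb7 stood at 5.51% and 3.66% in combination replicate 2 and at 10.1% and 13.4% in combination replicate 3. Acta1 stood at 2.07% and 9.25% in combination replicates 2 and 3. Cryab stood at 11.4% and 16.1% in these libraries and Hspb2 at 46.6% and 46.02%. Hspb1 and Hspb8, which many cell types express and which were singled out after their values were seen, stood at 25.99% and 89.0% in combination replicate 2 and 23.5% and 87.9% in combination replicate 3. In inhibitor replicate 3, with Acta1 at 0.00344%, Hspb3 stood at 0%, Hspb6 at 1.72% and Hspb7 at 2.34%. In that library Cryab stood at 8.01%, Hspb2 at 49.5%, Hspb1 at 53.5% and Hspb8 at 144.5%.

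Immediate early genes, which respond within minutes to growth factors, tissue handling and other stimuli, stood higher for 7 of 15 (median 1.28). Fos, a subunit of the AP-1 transcription factor at chr12:85473890-85477273, had 89.96, 99.8 and 29.9 RPKM in the muscle-rich libraries, against 7.89, 2.71 and 3.11 RPKM in the muscle-poor ones. Its partner gene Fosb had 20.5, 22.2 and 7.704 RPKM in the muscle-rich libraries, against 0.690, 0.619 and 0.663 RPKM in the muscle-poor ones, the transcription factor gene Egr1 had 99.997, 87.1 and 32.5 RPKM in the muscle-rich libraries, against 16.8, 10.9 and 9.64 RPKM in the muscle-poor ones, and Nr4a1, a nuclear receptor induced by activation, had 19.3, 30.3 and 16.6 RPKM in the muscle-rich libraries, against 9.03, 2.36 and 1.85 RPKM in the muscle-poor ones. All 4 were highest within the muscle-poor set in inhibitor replicate 3. PBS replicate 1 exceeded every muscle-rich library for Fos, at 136 RPKM, while the other inhibitor-free libraries had 2.75, 3.23 and 2.84 RPKM.

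The remaining stress lists overlapped between the sets, except that the antioxidant level was 3.82, 3.72 and 3.70 in the muscle-rich libraries, against 4.51, 3.86 and 3.83 in the muscle-poor ones, and these overlapped with median-ratio scaling. Of the large chaperones only Hspa1b, an inducible Hsp70, stood apart, at 89.4, 32.9 and 27.5 RPKM in the muscle-rich libraries, against 25.7, 3.46 and 2.93 RPKM in the muscle-poor ones; its near-identical copy Hspa1a had 37.4, 11.98 and 10.4 RPKM in the muscle-rich libraries, against 10.5, 1.26 and 1.28 RPKM in the muscle-poor ones. Hspa5 and Ddit3, marks of endoplasmic reticulum stress, had 279, 130.5 and 114 in muscle-rich against 232, 156 and 149 RPKM in muscle-poor libraries and 56.6, 55.1 and 43.2 in muscle-rich against 71.4, 86.2 and 72.9 RPKM in muscle-poor libraries. In that list Chac1, which degrades glutathione, stood higher at 2.32, and Xbp1, a transcription factor of secretory cells, stood lower at −1.07. The medians of the unfolded protein, hypoxia, antioxidant and p53 lists were −0.03, −0.14, −0.18 and −0.25, near the all-gene median of −0.25 or above it, and all 4 lay above 0 with median-ratio scaling.

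Hypoxia and oxidative stress genes again singled out inhibitor replicate 3. Hmox1, haem oxygenase, had 17.7, 12.4 and 11.6 RPKM in the muscle-rich libraries, against 87.6, 15.1 and 14.99 RPKM in the muscle-poor ones, and Vegfa, the vessel growth factor, had 256, 253 and 144 RPKM in the muscle-rich libraries, against 427, 157 and 208 RPKM in the muscle-poor ones. Car9, the carbonic anhydrase induced by low oxygen, had 1.98, 2.52 and 2.61 RPKM in the muscle-rich libraries, against 1.76, 1.85 and 1.94 RPKM in the muscle-poor ones, a difference under the size of 1. Ldha, lactate dehydrogenase A, ran the other way and stood higher in the muscle-rich libraries, at 153, 108 and 156 RPKM in the muscle-rich libraries, against 98.9, 41.7 and 48.4 RPKM in the muscle-poor ones. Cdkn1a, the p53 target that encodes the cell cycle inhibitor p21, had 3.66, 5.05 and 4.15 RPKM in the muscle-rich libraries, against 13.6, 3.71 and 5.43 RPKM in the muscle-poor ones, overlapping, and of p53 targets only Phlda3 stood apart (1.49). Neither of the 2 metallothionein genes tested stood apart, and Mt1, which binds zinc, had 53.6, 21.1 and 22.8 RPKM in the muscle-rich libraries, against 34.1, 5.23 and 10.4 RPKM in the muscle-poor ones.

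**Figure D4:**
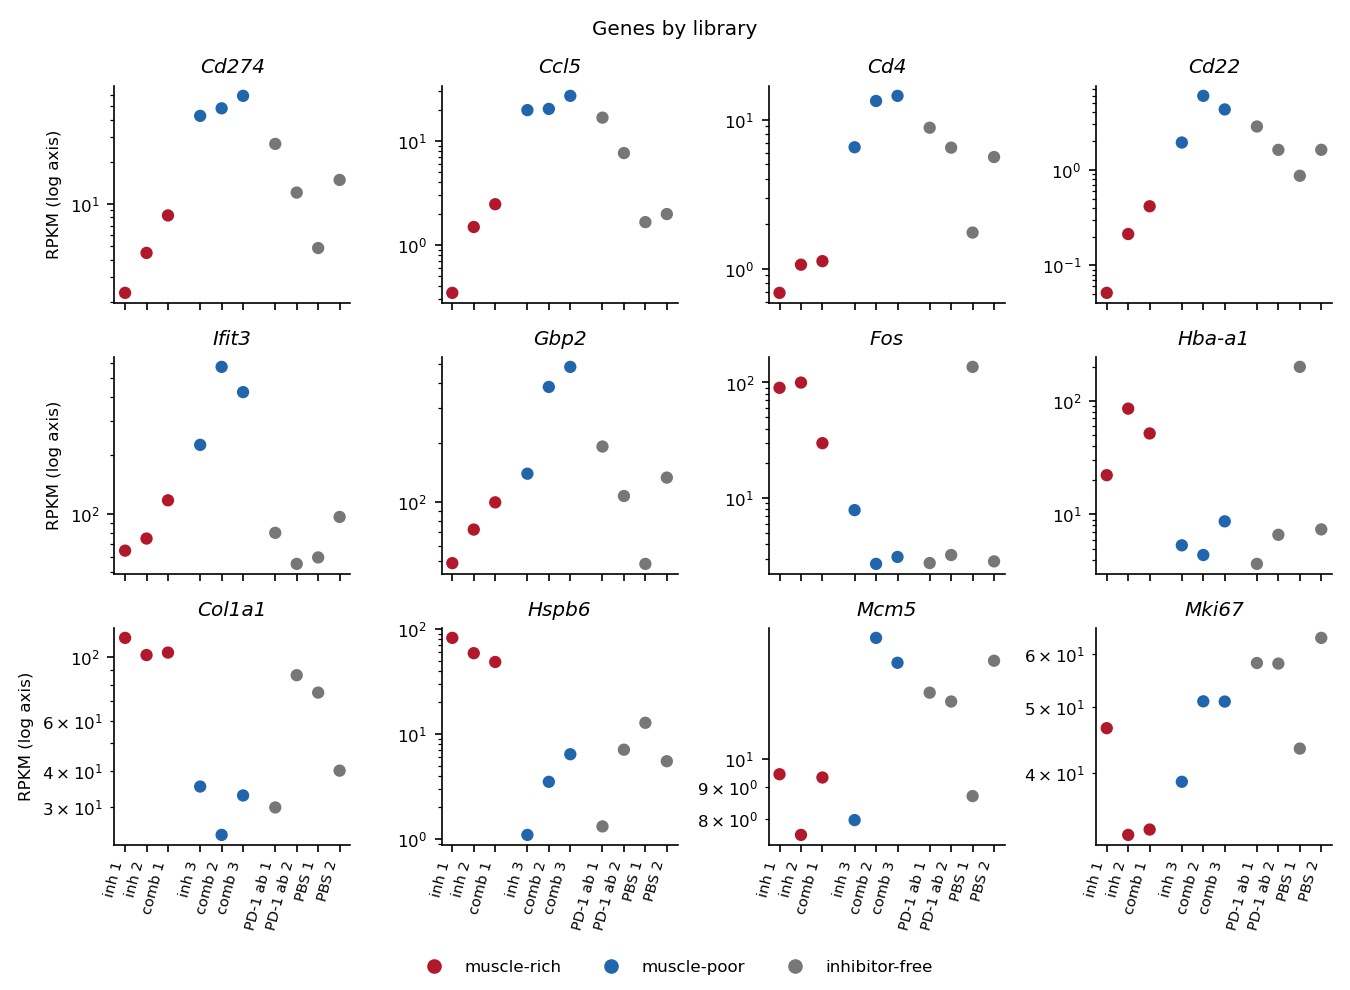
RPKM (log axis) of 12 genes in the 10 libraries, one point each, muscle-rich left of muscle-poor and inhibitor-free libraries on the right (inh, inhibitor; comb, combination; PD-1 ab, antibody). Cd274 and Ifit3 are highest in the muscle-poor libraries, Fos and Hba-a1 are highest in PBS replicate 1 followed by the muscle-rich libraries, and the cell cycle genes Mcm5 and Mki67 overlap.

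In all 4 lists related to the tumour cells the levels of the sets overlapped. Mki67, expressed in cycling cells, had 46.6, 32.4 and 33.01 RPKM in the muscle-rich libraries, against 38.8, 51.02 and 50.98 RPKM in the muscle-poor ones, and Mcm5, a subunit of the replicative helicase, had 9.44, 7.55 and 9.33 RPKM in the muscle-rich libraries, against 7.97, 15.6 and 14.2 RPKM in the muscle-poor ones. No member stood apart among 17 DNA replication genes (median −0.15) or 15 mitosis genes (median −0.19), and both medians turned positive with median-ratio scaling, at 0.12 and 0.05. Krt8, a keratin of simple epithelia, had 144, 164 and 179 RPKM in the muscle-rich libraries, against 118, 149 and 143 RPKM in the muscle-poor ones, and Msln, the surface protein mesothelin, had 13.9, 18.5 and 10.95 RPKM in the muscle-rich libraries, against 15.6, 13.9 and 18.7 RPKM in the muscle-poor ones. The DNA replication level was lowest of all 6 in inhibitor replicate 3, at 2.48, and highest in combination replicates 2 and 3, at 3.17 and 3.15.

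Combination replicate 1 differed from the other muscle-rich libraries in its epithelial genes. Epcam, an adhesion molecule of epithelia, had 1.12, 1.401 and 27.8 RPKM in the muscle-rich libraries, against 1.57, 2.83 and 3.06 RPKM in the muscle-poor ones. Krt7, a keratin of ducts and of the female genital tract, had 2.39, 2.63 and 12.7 RPKM in the muscle-rich libraries, against 0.670, 1.37 and 1.55 RPKM in the muscle-poor ones, the one member of the epithelial list that stood apart. Elf3, Wfdc2 and Ltf, chosen after their values were seen and known from secretory epithelia, had 49.5, 24.4 and 62.96 RPKM in that library and at most 3.98, 0.145 and 2.05 RPKM in the other 5. This library also had the highest smooth muscle values of the 6.

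Mitochondrial and lipid genes gave small shifts with a few exceptions. Pdk4, a kinase that turns muscle from glucose to fat, had 122, 84.8 and 178 RPKM in the muscle-rich libraries, against 5.24, 14.5 and 47.5 RPKM in the muscle-poor ones, and Cpt1b, the muscle form of the enzyme that admits fatty acids to mitochondria, had 7.24, 7.41 and 8.13 RPKM in the muscle-rich libraries, against 0.639, 1.81 and 3.48 RPKM in the muscle-poor ones. Of 18 nuclear respiratory chain genes 0 stood apart, although 11 did not overlap and were higher in the muscle-rich libraries, against 11.7% of all tested genes (median 0.32). Atp5b, the catalytic subunit of ATP synthase, had 142, 129 and 172 RPKM in the muscle-rich libraries, against 132, 112 and 126 RPKM in the muscle-poor ones. Fasn, the fatty acid synthase, had 6.65, 5.64 and 6.48 RPKM in the muscle-rich libraries, against 7.04, 8.99 and 7.99 RPKM in the muscle-poor ones, a difference of −0.33. Lipid synthesis genes had a median of −0.42, and Elovl6, a fatty acid elongase, stood lower at −1.15.

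The values of mitochondrially encoded genes differed in direction. The 3 that stood lower were mt-Co2, mt-Co3 and mt-Atp6, subunits of cytochrome oxidase and ATP synthase. For mt-Co2 the values were 19.8, 14.3 and 12.4 RPKM in the muscle-rich libraries, against 45.4, 43.1 and 44.996 RPKM in the muscle-poor ones, for mt-Co3 4.44, 5.82 and 6.08 RPKM in the muscle-rich libraries, against 14.2, 14.2 and 17.7 RPKM in the muscle-poor ones, and for mt-Atp6 40.4, 36.2 and 23.2 RPKM in the muscle-rich libraries, against 79.03, 94.96 and 97.6 RPKM in the muscle-poor ones. The respiratory complex I gene mt-Nd4l stood higher, at 10459.9, 7899.7 and 4452 RPKM in the muscle-rich libraries, against 2399, 3453 and 3575 RPKM in the muscle-poor ones. PBS replicate 1 had 13.1 RPKM of mt-Co2, within the muscle-rich range, and the other 3 inhibitor-free libraries had 28.7, 40.7 and 61.05 RPKM. The 3 genes that stood lower lie close together on the mitochondrial genome. Between mt-Co2 and mt-Atp6 lies mt-Atp8, which overlaps mt-Atp6 and did not stand lower. Levels of the 3 genes that stood lower were far below that of mt-Co1, 4441, 3659 and 2476 RPKM in the muscle-rich libraries and 1640.5, 1901 and 1923 RPKM in the muscle-poor ones. Why so few reads were counted for them was not tested, so their values are uncertain as measures of the messages.

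**Figure D5:**
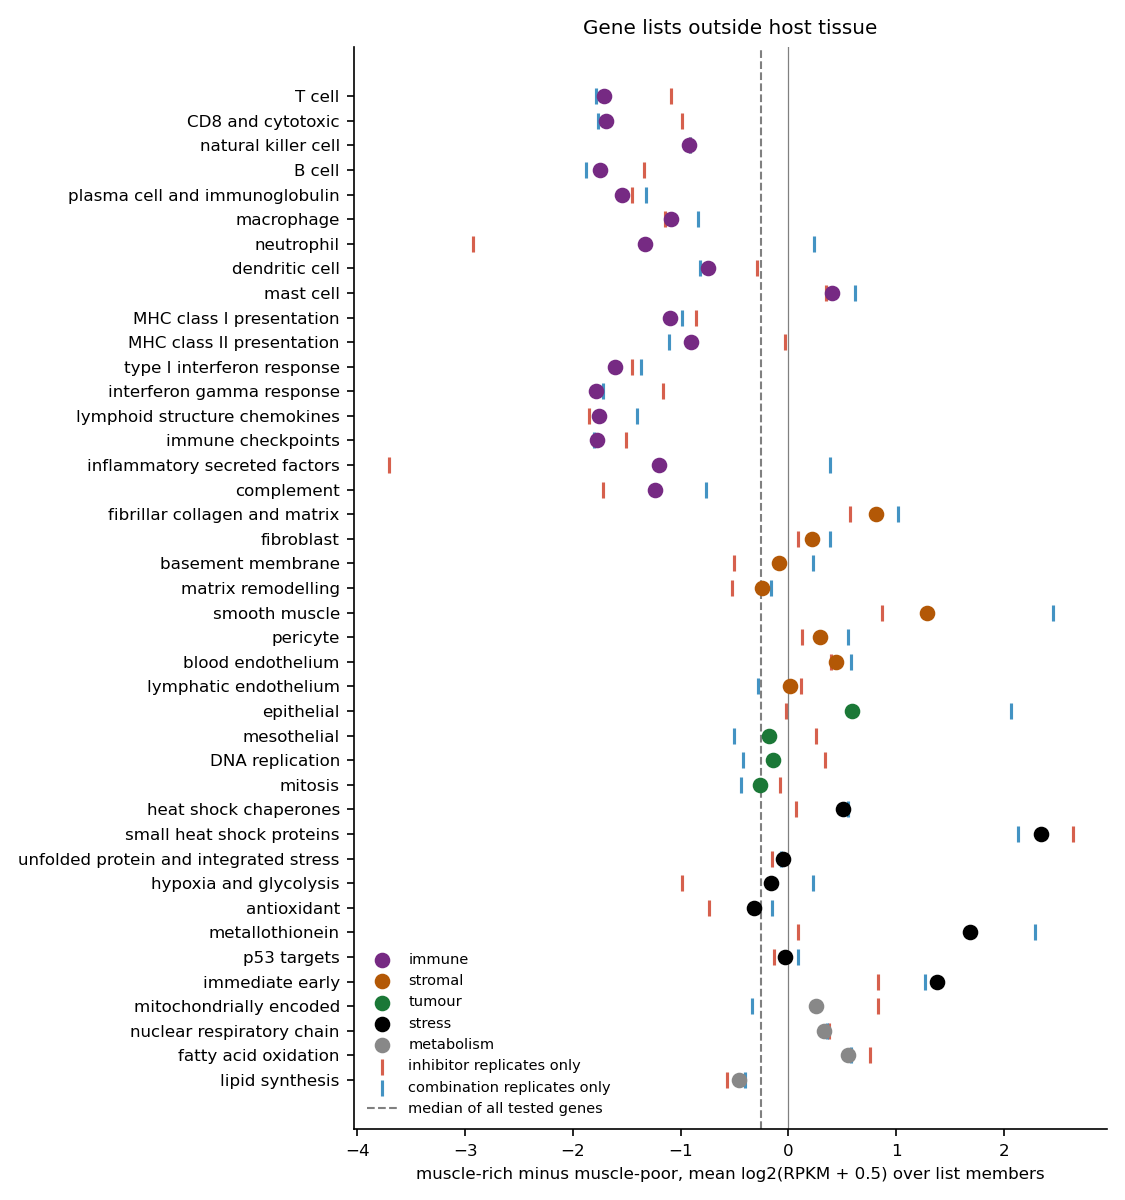
Muscle-rich minus muscle-poor difference of the list level for the 41 lists outside host tissue (dots, coloured by class; log2 scale), with the same difference within the inhibitor libraries and within the combination libraries (ticks) and the all-gene median of −0.25 (dashed line). Immune lists lie left of that line except mast cells, and small heat shock, immediate early, metallothionein and smooth muscle lists lie farthest right.

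Among the inhibitor-free libraries, PBS replicate 1 lay on the muscle-rich side for the most genes outside muscle and pancreas. Of the 1864 genes outside the pancreas list that stood lower in the muscle-rich libraries, PBS replicate 1 lay nearer to the muscle-rich than to the muscle-poor mean for 83.2%, against 26.7% for PBS replicate 2 and 19.6% and 20.1% for the antibody libraries. Of the 640 genes outside the muscle lists that stood higher, the shares were 49.7% for PBS replicate 1, 13.8% for PBS replicate 2 and 4.69% and 25% for the antibody libraries. The lists varied around these shares. Of genes that stood higher, PBS replicate 1 lay on the muscle-rich side for 7 of 7 immediate early and 4 of 4 erythroid genes, but for 3 of 6 small heat shock, 1 of 4 myogenic and 1 of 2 mast cell genes. Of genes that stood lower it did so for 21 of 21 type I interferon, 15 of 16 T cell, 10 of 12 B cell and 4 of 10 plasma cell genes. The 4 muscle lists took 2.03% of the reads in PBS replicate 1, the highest share of the inhibitor-free libraries, and the part of muscle content in this likeness was not tested. PBS replicate 1 had received no inhibitor, and nothing in the labels sets it apart from PBS replicate 2.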

How the data were processed

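RNA of 10 tumours was sequenced as paired-end stranded mRNA libraries, per the labels' protocols. These name 2 library kits without saying which sample had which. The authors deposited 1 table of RPKM values for 32830 genes, made against GRCm38 (mm10), per the submitters' processing notes. The sources used here name no aligner or counter and do not say whether strand was used. All values came out as whole reads (100% at a tolerance of 1e-06), which gave the library totals.

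The RPKM values were used as log2(RPKM + 0.5), and 19368 genes at 0.5 RPKM or more in at least 2 of 10 libraries were tested. This pseudocount understates differences of genes with low values. RPKM shares a fixed depth among all genes, so a tissue with abundant messages lowers the values of the rest. The muscle-rich and muscle-poor sets were chosen by Acta1 and were compared without a test. The combination and inhibitor groups were compared with limma 3.58.1 (trend, robust) in R 4.3.3, with Benjamini-Hochberg adjustment and a threshold of 0.05. The fit was tested on simulated data that held no muscle split. That test therefore cannot show which differences the fit would call in these libraries. The labels do not say that replicates came from separate mice, so p-values measure only the spread between these samples, which may be technical. No 2 inhibitor-treated libraries of a group agreed within sampling noise. Tables were handled with Python 3.11.15, pandas 2.3.3, numpy 2.4.6 and scipy 1.17.1, and plots drawn with matplotlib 3.10.9. Promoter sequences came from RefSeq.

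The members and the 55 gene lists (686 genes, of which 682 were in the table and 633 were tested) were chosen with earlier results of these data known. Genes named in the text are the 10 with the largest difference in each direction outside the muscle lists at a mean of at least 1 RPKM, up to 4 members per list that stood apart (otherwise 2), and a fixed set of marker genes. Others are said to have been chosen after their values were seen, and some genes of the rule are not reported here. Alternatives were the pseudocount, the filter, the scaling, the size of the difference, each library left out, each treatment alone, a replicate block, the muscle split as a covariate and all 10 libraries in the fit. A fit of the recovered reads with limma's voom was added after seeing the data.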

Additional observations from a re-analysis of the deposited data

Results flagged for a closer look

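In 8 of the 55 gene lists the difference of the level had opposite signs in the combination libraries and in the inhibitor libraries. The difference is muscle-rich minus muscle-poor on the log2(RPKM + 0.5) scale, and the sets did not overlap in either treatment. Each treatment had 1 library on one side and 2 on the other, so a lack of overlap arises easily, also for differences near 0. The difference between treatments was not tested. Inflammatory secreted factors differed by 0.385 within the combination group and −3.71 within the inhibitor group, where inhibitor replicate 3 was the high library. Epithelial genes differed by 2.06 within the combination group, where combination replicate 1 was the high library, and by −0.0245 within the inhibitor group. The mitochondrially encoded genes differed by −0.336 within the combination group and 0.833 within the inhibitor group. DNA replication genes differed by −0.425 within the combination group and 0.341 within the inhibitor group. For hypoxia and glycolysis genes the values were 0.226 in the combination group and −0.987 in the inhibitor group, and for basement membrane genes 0.228 and −0.503. For mesothelial genes they were −0.4998 in the combination group and 0.255 in the inhibitor group, and for p53 targets 0.0920 and −0.131.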

How the results depend on the processing

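Of the 32 lists whose levels did not overlap between the sets, 28 stayed without overlap under every alternative run and 0 turned in sign. The runs with a library left out or with 1 treatment alone only remove libraries. They could not bring overlap or a turned sign to these lists, so only the other alternatives bear on this. The exceptions, each in 1 to 3 alternatives, were the tendon, liver, antioxidant and lipid synthesis lists. Over the main 13 lists, 201 level differences stayed within 1 SD and 7 moved further. That SD is the larger of those within the 2 sets, each of which mixes both treatments. It is wide for some lists, at 2.85 for sarcomere genes. Over the other lists 612 differences stayed within it and 60 moved further. The DNA replication difference, −0.14 with overlapping sets, turned positive under median-ratio, quantile and muscle-free scaling and among the inhibitor libraries. With a pseudocount of 0.1 the B cell level difference was −2.71 and the checkpoint one −2.28. Relative to the deposited values, median-ratio scaling gave 1035 genes higher and 1153 lower, a macrophage difference of −0.815 and a collagen difference of 1.10, and quantile normalization gave 1044 and 1080 genes. Within the inhibitor libraries alone 1164 genes were higher and 2923 lower, with differences of 9.16 for sarcomere, 0.576 for collagen and 0.341 for DNA replication genes. A difference of at least 0.5 gave 1477 and 5272 genes and one of at least 2 gave 298 and 332. With each library left out in turn 715 to 787 genes were higher and 1716 to 2443 lower. A lack of overlap is easier to reach with fewer libraries. These counts and those of the inhibitor libraries alone therefore do not compare directly with the main counts. Between combination and inhibitor, limma called 0 genes under every alternative run, with 397 to 4258 genes at an unadjusted p under 0.05; the highest count was without inhibitor replicate 3 and 2582 came without combination replicate 1. The fit with a replicate block called 0 genes, with 1867 at an unadjusted p under 0.05. Deviations of same-numbered libraries correlated at 0.620, −0.449 and 0.487. Replicates 1 were both muscle-rich and replicates 3 both muscle-poor, while replicates 2 fell on opposite sides of the split. The signs go with the split, so the correlations cannot show whether the numbers pair the samples. voom on the recovered reads called 0 of 20109 genes, with 1261 at an unadjusted p under 0.05. Values that rest on a few reads, such as those of B cell genes in the muscle-rich libraries, are limited by depth.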
